A study of Mus musculus with 6 samples.

Results

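The S100 genes encode small calcium-binding proteins, and 10 of them were followed in mouse prostate cancer cells with and without an introduced PIM1 kinase: S100a1, S100a3, S100a4, S100a6, S100a8, S100a9, S100a10, S100a11, S100a13 and S100a16. They were chosen by name, with earlier results of these data known. Each was read from the probe sets annotated to that gene symbol alone. Each of the 10 genes had 1 such probe set, among 22180 genes measured in the same way. The cells were prostate epithelial cancer cells from Rb1F/F:Trp53F/F:PB-Cre4 mice, in which the probasin promoter drives Cre recombinase in prostate epithelium so that both tumour suppressor genes are deleted there. All 6 samples share this background and a medium with charcoal-stripped serum, insulin, transferrin, selenium, bovine pituitary extract, epidermal growth factor and cholera toxin. The EV group (3 arrays) was infected with a control lentivirus that carries no insert, and the PIM1 group (3 arrays) with a lentivirus for PIM1, a serine/threonine kinase. The labels give no age of the mice, and do not say whether the arrays of a group came from separate cultures or from 1 clone. The p-values therefore rest on the spread between these samples alone, and this spread may be technical.

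S100 proteins carry a pair of EF-hands, helix-loop-helix folds that bind calcium, and most act as dimers. Inside cells they bind and regulate annexins, myosin and other targets, and some are released and act on receptors such as TLR4 and RAGE, the product of Ager. In epithelium several members mark stressed or inflamed states, and S100A4 is known for its link to motile and metastatic cells. Most S100 genes lie in 1 cluster. In the RefSeq gene order of mouse chromosome 3 (GRCm38.p6), 12 S100 genes follow one another without another protein-coding gene between them, from S100a1 to S100a9, and 8 of the 10 genes followed here are among them. S100a11 and S100a10 lie next to each other, with 56 protein-coding genes between S100a9 and that pair.

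The sequences before 4 of these genes are shown because the genes lie in 1 cluster and their results differed: S100a8 rose, S100a9, the next gene to it, was not called, and S100a16 and S100a4 fell. Other S100 genes lie between S100a16 and S100a4 and between S100a4 and S100a8. Each is the 250 bases upstream of a RefSeq start in GRCm38.p6, written 5′ to 3′ on the gene's strand, and capitals mark a match to 1 of 4 searched motifs. The S100a8 window is chr3:90668821-90669070 (+), that of S100a9 is chr3:90695722-90695971 (-), that of S100a16 is chr3:90540896-90541145 (+), the downstream one of its 2 listed starts, and that of S100a4 is chr3:90603520-90603769 (+).
S100a8: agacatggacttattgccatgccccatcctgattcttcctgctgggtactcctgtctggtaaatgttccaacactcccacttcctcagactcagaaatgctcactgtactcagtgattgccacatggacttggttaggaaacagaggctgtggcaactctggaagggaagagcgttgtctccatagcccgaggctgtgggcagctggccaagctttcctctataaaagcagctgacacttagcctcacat
S100a9: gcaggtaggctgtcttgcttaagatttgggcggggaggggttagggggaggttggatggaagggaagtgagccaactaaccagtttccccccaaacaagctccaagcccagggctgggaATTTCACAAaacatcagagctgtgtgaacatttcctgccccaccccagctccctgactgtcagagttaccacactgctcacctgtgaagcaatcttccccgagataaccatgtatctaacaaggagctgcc
S100a16: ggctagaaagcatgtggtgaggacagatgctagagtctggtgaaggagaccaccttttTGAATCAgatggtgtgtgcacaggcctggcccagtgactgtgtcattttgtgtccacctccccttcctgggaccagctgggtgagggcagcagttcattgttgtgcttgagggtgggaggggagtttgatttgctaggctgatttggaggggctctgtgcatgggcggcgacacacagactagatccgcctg
S100a4: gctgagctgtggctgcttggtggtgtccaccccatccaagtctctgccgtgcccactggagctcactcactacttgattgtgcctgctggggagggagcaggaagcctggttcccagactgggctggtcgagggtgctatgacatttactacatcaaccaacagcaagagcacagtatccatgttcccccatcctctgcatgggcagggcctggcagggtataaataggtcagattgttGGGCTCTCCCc

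The motifs were searched on both strands: for NF-kappaB, GGG and TTTCC with any 2 bases between them or GGGA and CC with any 4, and further TTNNGNAAT for C/EBP, TTCNNNGAA for STAT and TGANTCA for AP-1, where N is any base. Windows were at hand for 9 of the 10 genes (13 windows, since some genes have several starts), and S100a10 was the gene without an entry. A C/EBP match stood in the S100a9 window, 131 to 123 bases before the start, and in no other window of these genes. NF-kappaB matches stood before S100a4, at 11 to 2 bases from the start, and before S100a11. AP-1 matches stood before S100a16, at 192 to 186 bases in the window shown, and before S100a11 at 2 places. The window of the upstream S100a16 start, not shown, held none of the 4 motifs. None of the marked matches overlapped another. The S100a8 window held none of the 4 motifs, and no S100 window held the STAT motif. Of 32851 windows of the same length over all genes, 18.2% held an NF-kappaB match, 10.2% a C/EBP match, 7.02% a STAT match and 6.75% an AP-1 match. Among the 13 S100 windows these shares were 15.4%, 7.69%, 0% and 15.4%. The windows of S100a1 and S100a13 lie on opposite strands and overlap by 104 bases, and neither of these genes was called. A match describes letters only, and no match says only that these letters are not in the window.

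Values below are log2 signals, and a difference is the PIM1 mean minus the EV mean, so that 1 unit is a 2-fold change. A gene was called where the adjusted p of the limma fit over all 22180 genes was under 0.05. The median over all probe sets of an array was between 3.49 and 3.52 for EV and between 3.38 and 3.42 for PIM1. Without a detection call, an unknown part of any low signal is background, and levels of different probe sets are not compared. Pim1 itself was 1.41 higher in PIM1 (SE 0.26, adjusted p = 0.00456), with no overlap between the groups, but the labels do not say whether its probes read the introduced sequence. Of all genes tested, 27.0% were called, 16.1% higher and 10.9% lower, and 59.6% of the calls were higher, or 73.5% where arrays were centred on their medians. Fibroblast markers rose in 9 of 11 cases and 1 fell (Fap), with Dcn, the matrix proteoglycan decorin, 5.48 higher, Pdgfra, a growth factor receptor, 4.70, and the matrix genes Dpt and Fbln1 2.58 and 1.94. The Fap call was lost without PIM1 replicate 1 or 2 (adjusted p = 0.0516 and 0.0553), after quantile normalization (0.0541) and after cyclic loess (0.0546). At 2 of the 11 markers, Fap and Lum (0.46 higher), every array was below its median.

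Among the S100 genes, 4 of 10 were called: S100a8 was higher, and S100a16, S100a4 and S100a6 were lower in PIM1 cells. Against the background of 27.0% of all genes called, 4 of 10 is a share near it for so few genes. In the direction of lower signal 3 of 10 stood beside 10.9% of all genes, and in the direction of higher signal 1 of 10 beside 16.1%. Bright genes were called more often, and 8 of the 10 had a mean signal at or above the median gene. Among the 11090 genes at or above it, tested alone, 2075 were lower and 3831 higher. Of the 8 S100 genes there, 3 were lower and 1 higher. EV and PIM1 values were fully separated for 5 of the 10, beside 43.2% of all genes: 4 lay lower in PIM1 (20.9% of all genes) and 1 higher (22.3%). The median difference over the 10 was -0.08, beside -0.05 over all genes, and the median size of the difference was 0.31, beside 0.23. A called change of at least 2-fold was seen for 2 of them, S100a8 and S100a16, and for 6.26% of all genes. Differences ran in both directions, and the plot of signals by array shows genes that rose, fell and stayed close within 1 chromosomal cluster.

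**Figure D1:**
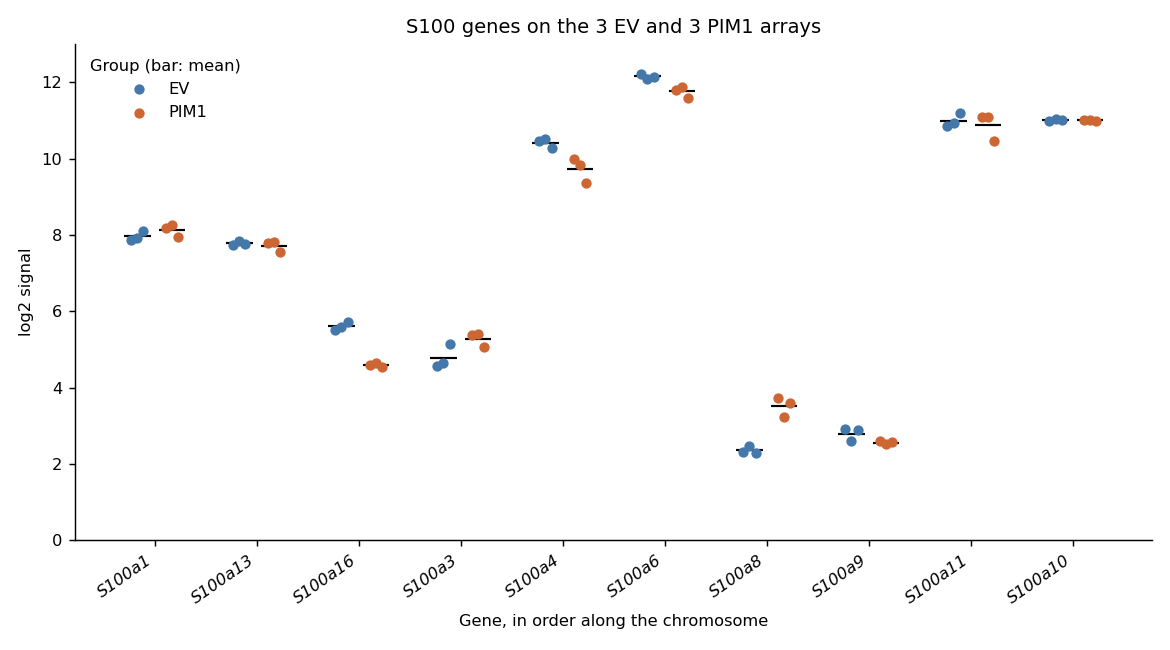
Log2 signal (y axis) of the 10 S100 genes, in their order along chromosome 3 (x axis), on each of the 3 EV arrays (blue) and 3 PIM1 arrays (orange), with bars at the group means. S100a8 lies higher and S100a16, S100a4 and S100a6 lie lower on every PIM1 array, while the S100a10 points coincide.

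S100a8 and S100a9 encode the subunits of calprotectin, a complex that neutrophils and inflamed epithelia release, which binds zinc and manganese and acts on TLR4. S100a8 measured 2.33, 2.48 and 2.28 with the empty vector and 3.73, 3.24 and 3.61 with PIM1. The groups did not overlap, and replicate 2 was the lowest of the PIM1 arrays. The S100a8 difference was 1.16 (SE 0.14, 95% interval 0.83 to 1.49, adjusted p = 0.000624), a 2.23-fold rise. It was called in all 13 alternatives that tested it, with adjusted p between 0.000187 and 0.00527. Every EV value and 1 PIM1 value of S100a8 were below the median of their array, so background may enter the size of the fold. S100a9 measured 2.91, 2.60 and 2.89 with the empty vector and 2.60, 2.52 and 2.57 with PIM1. The groups did not overlap, by a narrow margin at EV replicate 2, but the difference of -0.24 (95% interval -0.50 to 0.03) was not called (adjusted p = 0.169). All 6 S100a9 values were below the array medians.

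Change of the subunit genes was then compared within arrays. The within-array value of S100a8 minus that of S100a9 was -0.58, -0.12 and -0.61 with the empty vector and 1.13, 0.71 and 1.04 with PIM1, and only its change can be read, since the probe sets differ. This change was 1.40, and the groups did not overlap (exact permutation test, two-sided, p = 0.1, the smallest that 3 against 3 arrays allow). Background may enter its size, since every S100a9 value and every EV value of S100a8 lay below its array median. Because S100a8 is abundant in neutrophils, the myeloid markers were read beside it. Over all genes 16.1% were called higher and 10.9% lower. Of 13 neutrophil and myeloid markers 0 rose, at 7 of them every array was below its median, and 2 fell: Csf1r, the macrophage growth factor receptor (-1.35), and Ly6g, a neutrophil surface protein (-2.14). The summed linear signal of the 13 ranged from 181 to 212 on EV arrays and from 119 to 133 on PIM1 arrays, and Csf1r and Ly6g made up 88.8% of its fall. Ptprc, the pan-leukocyte CD45 gene, read 2.07 ± 0.15 (SD, n = 3) in EV and 1.87 ± 0.13 in PIM1, and Itgam, an integrin of myeloid cells, 2.56 ± 0.17 and 2.32 ± 0.07.

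S100a4 encodes metastasin, which binds non-muscle myosin and is also known as a fibroblast-specific protein. S100a4 measured 10.47, 10.50 and 10.26 with the empty vector and 9.99, 9.82 and 9.37 with PIM1, so that each PIM1 array lay below each EV array. The difference was -0.68 (SE 0.17, 95% interval -1.06 to -0.30, adjusted p = 0.0171), and EV was 1.61-fold higher. S100a4 stayed called in all 14 alternatives, with adjusted p between 0.00158 and 0.0482. PIM1 replicate 3 was the lowest array, and without it the difference was -0.51 (adjusted p = 0.0315). S100a4 was lower while the fibroblast markers Dcn and Pdgfra, named above, were higher on the same arrays; over the 11 fibroblast markers the summed linear signal was 2367 to 2452 on EV arrays and 8618 to 9038 on PIM1 arrays. Their part in the result was not tested. In such bulk samples fewer cells of a type and less RNA per cell cannot be told apart.

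S100a6 encodes calcyclin, a calcium sensor of proliferating cells that binds annexins and the CacyBP protein. S100a6 measured 12.22, 12.09 and 12.13 with the empty vector and 11.81, 11.88 and 11.59 with PIM1. The groups did not overlap, and the difference was -0.39 (SE 0.11, 95% interval -0.64 to -0.13, adjusted p = 0.0329), with EV 1.31-fold higher. This call held in only 4 of 14 alternatives. It was lost after quantile normalization (difference -0.17, adjusted p = 0.327), median centring (-0.29, 0.0864), cyclic loess (-0.33, 0.0508), over all probe sets (adjusted p = 0.0705) and with the replicate block (0.0578). Leaving out EV replicate 1, 2 or 3 (adjusted p = 0.0826, 0.0521 and 0.0643) or PIM1 replicate 1 or 3 (0.0796 and 0.0854) also ended it.

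S100a16, a widely expressed member of the family, had the largest fall of the 10. It measured 5.52, 5.59 and 5.71 with the empty vector and 4.60, 4.65 and 4.54 with PIM1. The arrays within each group lay close together and the groups were far apart. The S100a16 difference was -1.01 (SE 0.10, 95% interval -1.24 to -0.78, adjusted p = 0.000190), and EV was 2.01-fold higher. It was called in all 14 alternatives, with differences between -1.08 and -0.91.

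S100a3, the next gene after S100a16 in the cluster and known from the hair cuticle, differed in the other direction. S100a3 measured 4.57, 4.65 and 5.13 with the empty vector and 5.39, 5.42 and 5.06 with PIM1. The groups overlapped, since EV replicate 3 lay above PIM1 replicate 3. The difference of 0.51 (95% interval 0.11 to 0.91) was not called (adjusted p = 0.0649). It passed without EV replicate 3 (0.68, adjusted p = 0.0128), after median centring (0.60, 0.0331), with a trended and robust variance (0.0478) and among the brighter genes alone (0.0332).

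**Figure D2:**
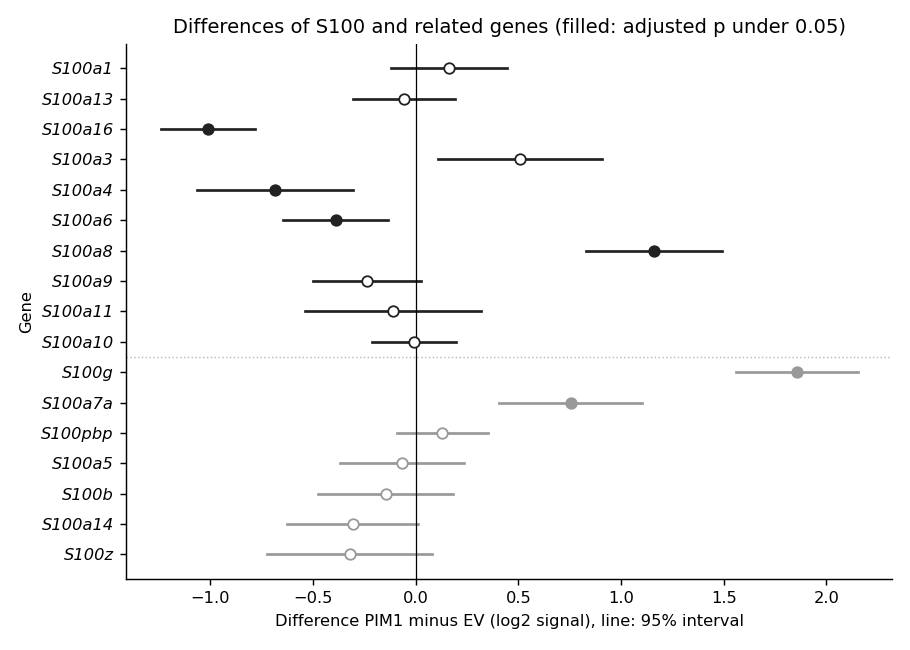
Difference PIM1 minus EV in log2 signal (x axis) with its 95% interval for the 10 S100 genes in chromosomal order (black) and, below the dotted line, 6 further S100 genes and S100pbp (grey); filled points have an adjusted p under 0.05. S100a8 lies at 1.16 and S100a16 at -1.01, while the interval of S100a10 runs from -0.21 to 0.20.

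S100a10 and S100a11 work with annexins at membranes. S100A10, which does not need calcium for binding, joins annexin A2 in a complex that also binds plasminogen activator. S100a10 measured 10.99, 11.03 and 11.02 with the empty vector and 11.005, 11.02 and 10.99 with PIM1, an almost constant signal. Its difference was -0.01, and the 95% interval of -0.21 to 0.20 bounds the change (adjusted p = 0.965). Anxa2, the gene of its partner, was 0.24 lower and not called (adjusted p = 0.143; 0.0196 with a trended and robust variance). The within-array value of S100a10 minus that of Anxa2 changed by 0.23, from 0.63, 0.58 and 0.59 with the empty vector to 0.88, 0.68 and 0.92 with PIM1 (exact permutation test, two-sided, p = 0.1, the smallest possible here). S100a11 measured 10.85, 10.94 and 11.18 with the empty vector and 11.10, 11.08 and 10.46 with PIM1. PIM1 replicate 3 stood below the other arrays, the groups overlapped, and the difference of -0.11 (95% interval -0.54 to 0.32) was not called (adjusted p = 0.698). Without PIM1 replicate 3 it was 0.10. A pseudogene of S100a11, S100a11-ps, has a probe set of its own that was 0.53 lower in PIM1 and not called (adjusted p = 0.0578), and probe sets of such copies can share signal.

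S100a1, best known for raising calcium cycling in heart and muscle, measured 7.86, 7.92 and 8.10 with the empty vector and 8.18, 8.26 and 7.93 with PIM1. The groups overlapped at PIM1 replicate 3, and the difference of 0.16 (95% interval -0.12 to 0.44) was not called (adjusted p = 0.380). S100a13, which takes part in the release of the growth factor FGF1, measured 7.73, 7.84 and 7.77 with the empty vector and 7.79, 7.82 and 7.56 with PIM1. Its groups overlapped too, with a difference of -0.06 (95% interval -0.31 to 0.19, adjusted p = 0.740).

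PIM1 replicate 3 was the lowest PIM1 array for 8 of the 10 S100 genes, the exceptions being S100a8 and S100a9. Over all genes it was the lowest for 35.3%. Without it 3 S100 genes were called, S100a8, S100a4 and S100a16, and the median difference over the 10 was 0.01 in place of -0.08. The plot of results by setting shows these genes called throughout wherever they were tested, while S100a6 and S100a3 crossed the threshold with the setting.

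**Figure D3:**
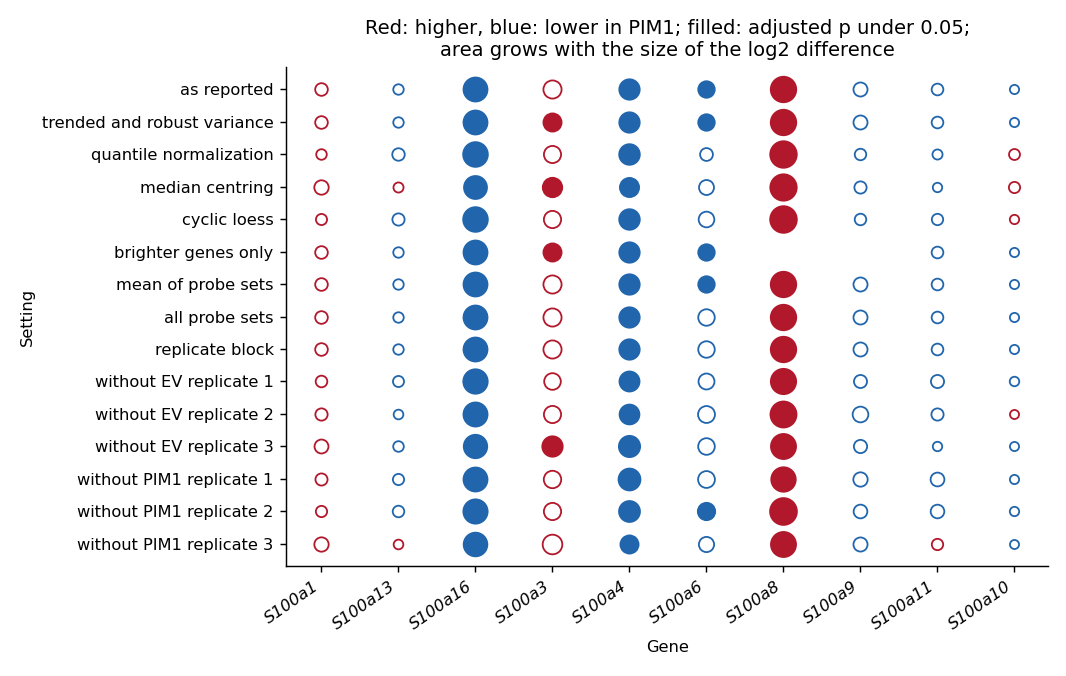
Each of the 10 S100 genes (x axis) under the reported setting and 14 alternatives (y axis); red points are higher and blue points lower in PIM1, filled points have an adjusted p under 0.05, and the area grows with the size of the log2 difference. S100a16 and S100a4 are filled in every row and S100a8 in every row that tested it, and S100a6 is filled in 4 of the 14 alternatives.

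Other S100 genes gave 2 calls among 7 genes read, S100pbp (which encodes a binding partner of S100P) included, and both were higher in PIM1. Over all genes 16.1% were called higher. S100g, which encodes calbindin D9k of calcium-absorbing epithelia, measured 3.999, 3.69 and 4.01 with the empty vector and 5.68, 5.91 and 5.66 with PIM1, a difference of 1.85 (adjusted p = 2.77e-05). S100a7a, the neighbour of S100a8 in the cluster and a relative of psoriasin, measured 4.002, 3.72 and 3.45 against 4.59, 4.48 and 4.36, a difference of 0.75 (adjusted p = 0.00728). The S100g values in EV lay above but near the array medians, and the S100a7a value of EV replicate 3 lay below its median. Background may enter the size of both differences. S100a14 and S100z differed by -0.31 and -0.32 and were not called (adjusted p = 0.145 and 0.217). S100a2 and S100a7l2 differed by -0.41 and -0.11 and were not called either (adjusted p = 0.0700 and 0.537). None of 7 fused-type S100 genes, large proteins of the cornified epidermis such as filaggrin, was called, and at all 7 every array was below its median; Tchh, the trichohyalin gene, passed only without EV replicate 1 (-0.61, adjusted p = 0.00779).

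Receptors of secreted S100 proteins were called in 7 of 9 cases, 5 higher and 2 lower, with a median difference of 0.46. Over all genes 27.0% were called, 16.1% higher and 10.9% lower. The members and all lists, above and below, were chosen with earlier results of these data known, so their counts are description only. Cd14, the co-receptor that hands ligands to TLR4, rose by 2.20 from 5.53 ± 0.34 to 7.73 ± 0.18 (SD, n = 3), and Ly96, the TLR4 partner MD-2, by 1.24 (adjusted p = 0.00537). Tlr4 was 0.57 higher (adjusted p = 0.0316), a call lost after quantile normalization (0.0677), cyclic loess (0.0548), over all probe sets (0.0709) and without EV replicate 1 or 3 (0.0833 and 0.0573), as without PIM1 replicate 2 or 3 (0.0733 and 0.0961). Bsg and Nptn, immunoglobulin-type proteins that bind S100A9 and S100A8, rose by 1.00 and 0.46. Ager, the RAGE gene, differed by 0.08 and was not called (adjusted p = 0.616). Alcam, an adhesion molecule also reported to bind these alarmins, fell by 3.32 from 7.72 ± 0.15 to 4.40 ± 0.10. Cd36, a scavenger receptor, fell by 0.42 at a low signal (adjusted p = 0.0174), and this was lost after quantile normalization, median centring and cyclic loess (0.0929, 0.0511 and 0.0958) and without PIM1 replicate 2 (0.0758).

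Of 11 annexin genes 2 rose and 2 fell, beside 16.1% and 10.9% of all genes, with a median difference of -0.16. These counts moved with the setting: with a trended and robust variance 5 fell and 2 rose (Anxa2, Anxa5 and Anxa6 being added), and without any 1 of the PIM1 arrays 1 fell and 1 rose. Anxa1, whose product pairs with S100A11, fell by 0.92 from 10.79 ± 0.05 to 9.86 ± 0.05 (adjusted p = 0.000207), while S100a11 was not called. Anxa7 rose by 0.91 (adjusted p = 0.000664). Anxa3 was 0.40 lower (adjusted p = 0.0186) and Anxa9 0.49 higher (0.0386). The Anxa3 call was lost after median centring (0.0552) and without PIM1 replicate 1, 2 or 3 (0.0507, 0.0590 and 0.0544). The Anxa9 call was lost over all probe sets (0.0819), with the replicate block (0.0610) and without EV replicate 2 or 3 (0.0685 and 0.0924) or any PIM1 array (0.0539, 0.131 and 0.104).

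Among 14 further intracellular partners 1 rose and 4 fell (median -0.11), beside 16.1% and 10.9% of all genes. With a trended and robust variance 3 rose and 4 fell, and after median centring 3 rose and 3 fell. The genes of known S100A4 partners included Myh9 and Ppfibp1, and both fell: Myh9, the heavy chain of non-muscle myosin IIA, by 0.52 (adjusted p = 0.00553), and Ppfibp1, the scaffold liprin beta 1, by 0.69 (adjusted p = 0.000917). Ahnak, a giant scaffold that binds the S100A10 and annexin A2 complex, fell by 0.51 (adjusted p = 0.00573). Sugt1, a co-chaperone that binds S100A6, was 0.39 lower (adjusted p = 0.0297), a call lost after median centring (0.0862), over all probe sets (0.0649), and without EV replicate 1 or 3 (0.0759 and 0.0587) or any PIM1 array (0.0766, 0.107 and 0.0638). Mdm2, the ubiquitin ligase that restrains p53 and binds several S100 proteins, rose by 0.50.

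**Figure D4:**
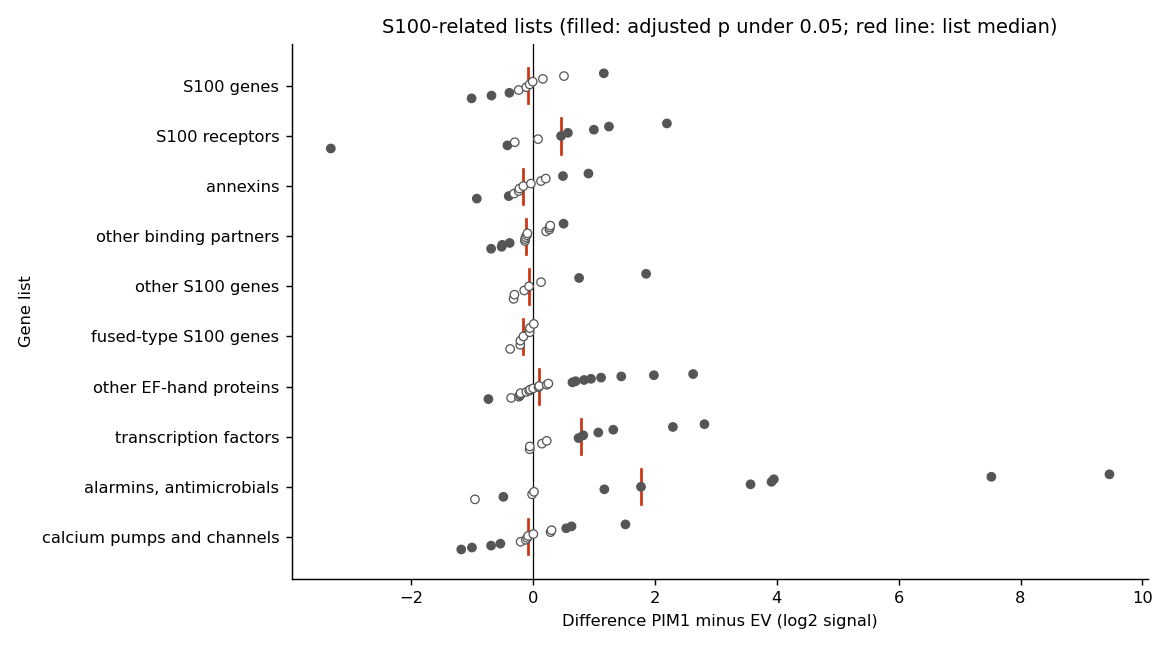
Difference PIM1 minus EV in log2 signal (x axis) for each measured gene of the S100 family and 9 related lists (y axis), with filled points for an adjusted p under 0.05 and a red line at each list's median. The S100 median lies at -0.08, while that of the alarmins and antimicrobial proteins lies at 1.77.

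Of 10 transcription factors known to act on S100 genes, 6 rose and none fell, with a median difference of 0.78. Over all genes 16.1% were called higher and 10.9% lower. Cebpb and Cebpd, of the C/EBP family that acts on S100a8 and S100a9 in myeloid cells, rose by 2.29 and 2.81. Cebpa, of the same family, and Spi1 differed by -0.05 and -0.06 and were not called (adjusted p = 0.839 and 0.769). Rela and Ctnnb1 differed by 0.14 and 0.22 and were not called either (adjusted p = 0.300 and 0.117). Stat3 rose by 1.32 and Jun, an AP-1 subunit, by 1.07, and Hif1a and Fos also rose (0.74 and 0.82). Other alarmins and antimicrobial proteins rose in 7 of 11 cases, beside 16.1% of all genes, and the list's median difference was 1.77. Hmgb1, Ltf and Lyz2 differed by -0.02, 0.01 and -0.96 and were not called (adjusted p = 0.920, 0.947 and 0.155). Ngp, a neutrophil granule protein, was lower by 0.49, with every array below its median. Camp, of the same list, rose by 1.77 (adjusted p = 1.67e-05) from an EV mean of 2.63, below the EV array medians. Slpi, a secreted protease inhibitor, rose by 3.91 and Il33, a nuclear alarmin of the interleukin-1 family, by 3.57; Saa3 and Lcn2 rose by 9.46 and 7.52. The EV means of Saa3 and Lcn2, 3.04 and 3.40, lay below the EV array medians, so background may enter the size of both.

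Other EF-hand proteins were called in 9 of 22 cases, beside 27.0% of all genes, with a median difference of 0.09. Of the 22, 8 were higher (16.1% of all genes) and 1 lower (10.9%). Rcn3 and Rcn1, calcium-binding proteins of the endoplasmic reticulum, rose by 2.63 and 0.95, Chp1, a partner of sodium-proton exchangers, by 1.98 from a low signal, and Nucb1, of the Golgi, by 1.11. Capn2, the large subunit of a calcium-activated protease, fell by 0.73. Calcium pumps, release channels and entry channels were called in 7 of 14 cases, 3 higher and 4 lower, beside the same shares of all genes.

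Epithelial markers were read beside the S100 genes to check the labelled cell type. Over all genes 16.1% were called higher and 10.9% lower. Of 9 luminal markers 2 rose and 4 fell: Krt18, a keratin of simple epithelium, fell by 4.24 and Cdh1, which encodes E-cadherin, by 0.94, whereas Cd24a rose by 1.65 and Hoxb13, a prostate homeobox gene, by 0.58. These sizes are those of the brightest probe set of each gene, and with the mean over probe sets the Cdh1 difference was -0.39 and that of Cd24a 0.94, both still called. The other calls among the luminal markers, Krt19, a keratin, and Prom1, a membrane protein, were both lost after quantile normalization, after median centring, over all probe sets and without any 1 of the PIM1 arrays, where 2 of 9 fell. The Prom1 means, 1.97 in EV and 1.66 in PIM1, lay below the array medians. Its call was also lost with a trended and robust variance (adjusted p = 0.0938), after cyclic loess (0.279), with the replicate block (0.0874) and without EV replicate 1, 2 or 3 (0.0952, 0.116 and 0.0599). Krt8 read 4.73 ± 0.10 in EV and 4.65 ± 0.15 in PIM1 (SD, n = 3), above the array medians, and Epcam 2.50 ± 0.03 and 2.35 ± 0.06, below them. Of 11 basal and squamous markers 0 rose and 3 fell, Itga6, a laminin receptor chain, by 2.10, Sprr1a, a cornified envelope protein from the same chromosomal region as the S100 genes, by 1.77 and Lamb3, a laminin chain, by 1.03. The summed linear signal of these basal and squamous markers was 808 to 873 on EV arrays and 282 to 298 on PIM1 arrays. Itga6 and Sprr1a made up 95.9% of that fall, the sum without them was 130 to 149 on EV and 98.5 to 126 on PIM1 arrays, and 8 of the 11 markers were not called, Trp63, Krt14 and Sfn among them. With the replicate block 5 fell, Sprr1b and Krt14 being added. The part of these markers in the S100 results was not tested.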

How the data were processed

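Total RNA of the 6 samples was hybridised to whole-transcript mouse gene arrays. Per the submitters' processing notes, the authors used Affymetrix Expression Console, and the deposited values were taken as log2 signals from their range (0.34 to 13.0). Not given in the sources used here are the log base and the authors' background correction, summarization and normalization, which was kept. Groups came from the sample titles. Platform annotation named 23521 of 41345 probe sets with 1 gene symbol, and for genes with several probe sets the brightest was used, which left 22180 genes.

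PIM1 was compared with EV in limma 3.58.1 (R 4.3.3; lmFit and eBayes, two-sided, group as the only term), with Benjamini-Hochberg adjustment over all genes tested and a threshold of 0.05. The code was tested on simulated data. The members and lists were chosen with earlier results of these data known. Named genes are the members, Pim1 to Pim3, and in each list those with the smallest p (at most 4) and those called against the others. Tlr4, Ager, Nptn, Sugt1, Anxa2, Hif1a, Fos, Cebpa, Spi1, Rela, Ctnnb1, Camp, Hmgb1, Ltf, Lyz2, Lum, Ptprc, Itgam, Epcam, Krt8, Krt19, Prom1, Krt14, Sprr1b, Trp63, Sfn, Anxa5, Anxa6, S100pbp, S100a2, S100a7l2 and S100a11-ps were added after their values were seen. Fused-type and calcium channel lists are given mainly by counts. Alternatives were other variance, normalization, filter and probe-set choices, the replicate number as a block, and leaving out each array.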

Additional observations from a re-analysis of the deposited data

How the results depend on the processing

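The number of genes called, 5995 as reported, was between 4167 and 5369 when 1 array was left out, and the number of S100 genes called, 4 as reported, was 3 or 4. Over the other alternatives 3 to 5 S100 genes were called. S100a8, S100a4 and S100a16 were called wherever they were tested, and S100a8 and S100a9 were too dim to be tested among the brighter genes alone. Some uncalled differences near 0 changed sign. S100a10 was 0.0786 after quantile normalization, 0.0911 after median centring and 0.0113 after cyclic loess, and ran from -0.0182 to 0.0014 when 1 array was left out. S100a13 was 0.0409 after median centring and ran from -0.1066 to 0.0251, S100a11 from -0.2222 to 0.0971, and Krt8 was 0.0192 after median centring and ran from -0.1291 to 0.0064. S100pbp, 0.1293 as reported, was -0.0139 after quantile normalization. With a trended and robust variance 2 EF-hand genes fell in place of 1, and with the replicate block or without EV replicate 2 so did 2 alarmins in place of 1. The change of S100a8 against S100a9 was 1.31 to 1.56 without each array in turn, and that of S100a10 against Anxa2 0.18 to 0.30. With the replicate block 5321 genes and 3 S100 genes were called. Deviations of samples with the same number correlated at 0.056, -0.031 and 0.009. These values show no strong shared shift, but they cannot tell whether samples with the same number were handled together. The small number of arrays limits the precision, and signals below the array median hold background.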
